A study of Mus musculus with 12 samples.

Results

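The genes described here are *Nfe2l2*, which encodes the transcription factor NRF2, *Keap1*, which encodes its inhibitor, and 8 genes known as NRF2 targets: *Nqo1*, *Hmox1*, *Gclc*, *Gclm*, *Gsr*, *Txnrd1*, *Srxn1* and *Prdx1*. They were chosen by gene symbol, and all 10 were found among the 57180 genes of the deposited tables and passed the filter on low counts. The RNA came from E14 mouse embryonic stem cells (ESCs) of 1 chosen clone in which doxycycline (DOX) induces a repressor placed at the Tigre locus, so that guide RNAs silence the gene they sit on (CRISPR interference). The Neg line carries scramble guides and the 3xKD line carries guides against *Pcx*, *Me1* and *Me2*, which encode pyruvate carboxylase and the cytoplasmic and mitochondrial malic enzymes. Both lines were sequenced as naive ESCs in N2B27 with 2iLIF and as epiblast-like cells (EpiLCs) on day 2 of induction in medium with Activin A, Fgf2 and XAV939, with 3 libraries in each of the 4 groups. All groups shared the repressor, the drug selection and low-oxygen culture. The methods describe DMSO or DOX treatment, the labels name neither, and DOX in all 4 groups was taken from the study's description of its expression data. Each line is 1 transfected population, so the guides and the line cannot be told apart, and the cell state and its medium cannot be told apart either. In bulk RNA, fewer cells of a type and less RNA per cell cannot be told apart.

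NRF2 is the master regulator of the antioxidant response. In unstressed cells KEAP1 holds NRF2 in the cytoplasm and hands it to a ubiquitin ligase for degradation, and oxidants or electrophiles that modify cysteines of KEAP1 let NRF2 accumulate, enter the nucleus with a small MAF partner and bind antioxidant response elements (AREs). Its targets make glutathione, recycle oxidized glutathione and thioredoxin, reduce peroxides and detoxify quinones and heme, and much of this chemistry consumes NADPH, the product of malic enzyme 1. NRF2 is controlled mainly through its protein, so the level of *Nfe2l2* mRNA is no measure of its activity.

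RefSeq promoter windows, which run from 250 bases before to 50 bases after a start site, were found for 7 of the 10 genes (*Nfe2l2*, *Keap1*, *Nqo1*, *Gclm*, *Txnrd1*, *Srxn1* and *Prdx1*). They were searched on both strands for the core letters of the ARE, TGACNNNGC, in which N is any base. The letters stood in windows of 5 of these genes, against 14% of the 27025 genes with windows and 12.4% of all 32851 windows. The upstream stretches of the 4 genes with the letters before the start site are given 5′ to 3′ on the strand of the gene, each from GRCm39, with the match in capitals and with bases that an annotated exon of the same gene covers left out. They are shown because the NRF2 gene itself and 3 of the genes whose 3xKD effect differed between states carry the letters there. Whether the letters relate to that difference was not tested. Most of the 10 genes are known NRF2 targets, so the share with the letters is no independent result.

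*Nfe2l2*, chr2:75535008-75535257, minus strand: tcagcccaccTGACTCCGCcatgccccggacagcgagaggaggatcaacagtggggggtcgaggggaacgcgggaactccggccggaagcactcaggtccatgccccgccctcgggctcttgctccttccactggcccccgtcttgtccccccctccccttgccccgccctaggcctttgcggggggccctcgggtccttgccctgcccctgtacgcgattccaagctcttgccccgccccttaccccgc
*Gclm*, chr3:122038956-122039125, plus strand: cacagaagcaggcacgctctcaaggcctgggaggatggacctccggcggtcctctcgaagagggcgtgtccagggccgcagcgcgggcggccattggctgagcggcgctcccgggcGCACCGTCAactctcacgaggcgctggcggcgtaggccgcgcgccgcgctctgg
*Prdx1*, chr4:116542546-116542684, plus strand: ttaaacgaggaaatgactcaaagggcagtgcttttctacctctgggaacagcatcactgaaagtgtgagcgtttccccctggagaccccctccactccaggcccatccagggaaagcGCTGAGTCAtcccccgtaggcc
*Txnrd1*, chr10:82694790-82695012, plus strand: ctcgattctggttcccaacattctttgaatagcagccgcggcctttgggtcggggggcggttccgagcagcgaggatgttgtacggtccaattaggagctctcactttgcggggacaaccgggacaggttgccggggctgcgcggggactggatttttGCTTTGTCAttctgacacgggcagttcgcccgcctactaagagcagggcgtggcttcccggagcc

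The match of *Nfe2l2* (TGACTCCGC) lay on the sense strand, 240 to 232 bases before the start site. Those of *Gclm* (GCACCGTCA, 134 to 126 bases before), *Prdx1* (GCTGAGTCA, 133 to 125 bases before) and *Txnrd1* (GCTTTGTCA, 92 to 84 bases before, in 1 of its 3 windows) lay on the antisense strand. *Srxn1* held the letters on the antisense strand as GCTAGGTCA, 28 to 36 bases after its start site. The windows of *Nqo1* and *Keap1* did not hold them, which says nothing about sequence outside these windows. A match is a description of letters and not of binding, which these data did not measure.

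Libraries held between 11221023 and 19652197 estimated counts, and 25446 genes passed the filter of 10 counts over all libraries. Values are CPM, that is, counts scaled to a common library total, after TMM normalization. "Rose" and "fell" stand for a Benjamini-Hochberg adjusted p under 0.01 from edgeR's quasi-likelihood test, and "called" adds an absolute log2 fold change above 0.58. Each guide target fell in 3xKD, from a mean of 36.2 to 16.4 CPM for *Pcx*, 69.2 to 37.3 CPM for *Me1* and 101 to 52.2 CPM for *Me2* in ESCs, and from 51.0 to 24.6, 34.8 to 16.8 and 70.9 to 36 CPM in EpiLCs. The summed level of 7 naive markers separated the states (4673 to 4822 CPM in Neg ESCs, 245 to 256 CPM in Neg EpiLCs) and also moved with the line, at 3740 to 3821 CPM in 3xKD ESCs and 390 to 401 CPM in 3xKD EpiLCs. That of 6 formative markers was 231 to 243 CPM in Neg ESCs, 268 to 274 CPM in 3xKD ESCs, 2708 to 3039 CPM in Neg EpiLCs and 1603 to 1653 CPM in 3xKD EpiLCs. The higher sum in 3xKD ESCs does not describe most of the 6 genes. There 4 had a log2 fold change below 0 and 2 above, with a median of -0.29 and 1 called lower. The part of these marker shifts in the results on NRF2 genes was not tested. Summed markers of primitive endoderm, trophoblast, mesoderm and fibroblasts each lay between 1.02 and 31 CPM in every library. Several of these sums also moved with the line. Primitive endoderm markers summed to 21.5 to 24.1 CPM in Neg and 28.1 to 31 CPM in 3xKD ESCs, and to 23.8 to 28.6 CPM in Neg and 18.2 to 19.8 CPM in 3xKD EpiLCs. Trophoblast markers summed to 9.36 to 10.6 and 12.6 to 13.9 CPM in ESCs, and to 6.24 to 7.14 and 9.27 to 11.9 CPM in EpiLCs, in the same order. Fibroblast markers summed to 1.02 to 1.15 CPM in Neg and 1.72 to 1.83 CPM in 3xKD ESCs and overlapped in EpiLCs, and mesoderm markers overlapped in both states. The part of these sets in the results was not tested either.

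In 3xKD ESCs, *Nqo1* and *Txnrd1* were called higher and none of the 10 genes was called lower, whereas 8.50% of all tested genes were called higher and 6.76% lower. Without the fold limit, all 10 genes passed (7 rose and 3 fell), against 31.6% of all tested genes and 51.3% of those whose mean reached 1 CPM. The libraries of the groups did not overlap for any of the 10 genes, as for 49.0% of all tested genes. All 10 had a mean of at least 1 CPM, but only 15032 of the 25446 tested genes had. This share therefore does not compare genes of like level. The median log2 fold change was 0.22, against 0.03 over all tested genes. In 3xKD EpiLCs, *Nqo1* was called higher and *Gclc* lower, where 7.88% of all tested genes were called higher and 5.35% lower. Without the fold limit, 4 genes rose and 2 fell, against 29.9% of all tested genes and 49.1% of those whose mean reached 1 CPM, and the median log2 fold change of the 10 genes was -0.07, against 0.03 over all tested genes. *Nqo1*, *Hmox1*, *Gsr* and *Txnrd1* rose in both states, and *Gclc* fell in both.

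**Figure D1:**
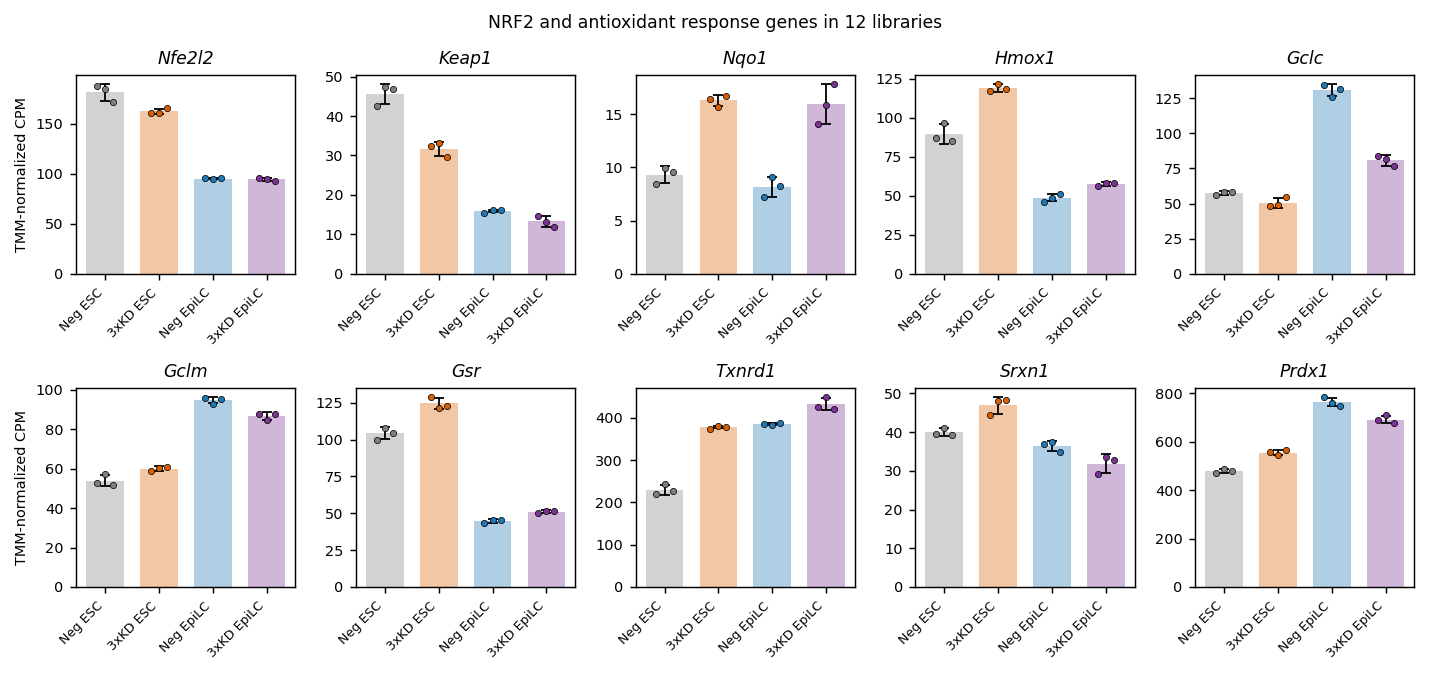
TMM-normalized CPM of each of the 10 genes (vertical axes from 0, scaled by gene) in the 12 libraries, grouped on the horizontal axis as Neg ESC, 3xKD ESC, Neg EpiLC and 3xKD EpiLC. Points are libraries, bars are group means and error bars are SD (n = 3). *Nqo1* was higher in the 3xKD line in both states, *Keap1*, *Nfe2l2*, *Hmox1* and *Gsr* were lower in EpiLCs, and *Gclc* was highest in Neg EpiLCs.

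Between states, 8 of the 10 genes were called in the Neg line, 4 higher and 4 lower in EpiLCs, with 20.8% of all tested genes called in either direction. *Nfe2l2*, *Keap1*, *Hmox1* and *Gsr* were lower, and *Gclc*, *Gclm*, *Txnrd1* and *Prdx1* were higher. In the 3xKD line the same 4 genes were called lower and *Gclc* alone was called higher, with 18.7% of all tested genes called. The 3xKD effect itself differed between states for 5 of the 10 genes (*Gclc*, *Gclm*, *Txnrd1*, *Srxn1* and *Prdx1*, interaction term at an adjusted p under 0.01), against 16.8% of the genes whose mean reached 1 CPM. All 5 differences were negative, a direction in which 5.27% of all tested genes were called. In either direction 10% of all tested genes were called, so the 5.27% does not compare genes of like level. The 3xKD value relative to Neg was thus lower in EpiLCs than in ESCs. When offsets for average transcript length were used, only *Txnrd1* and *Prdx1* passed. The comparisons share groups, so these counts are not independent of each other. For several genes below, the libraries of the states do not overlap. How many of all tested genes do the same is not given here.

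**Figure D2:**
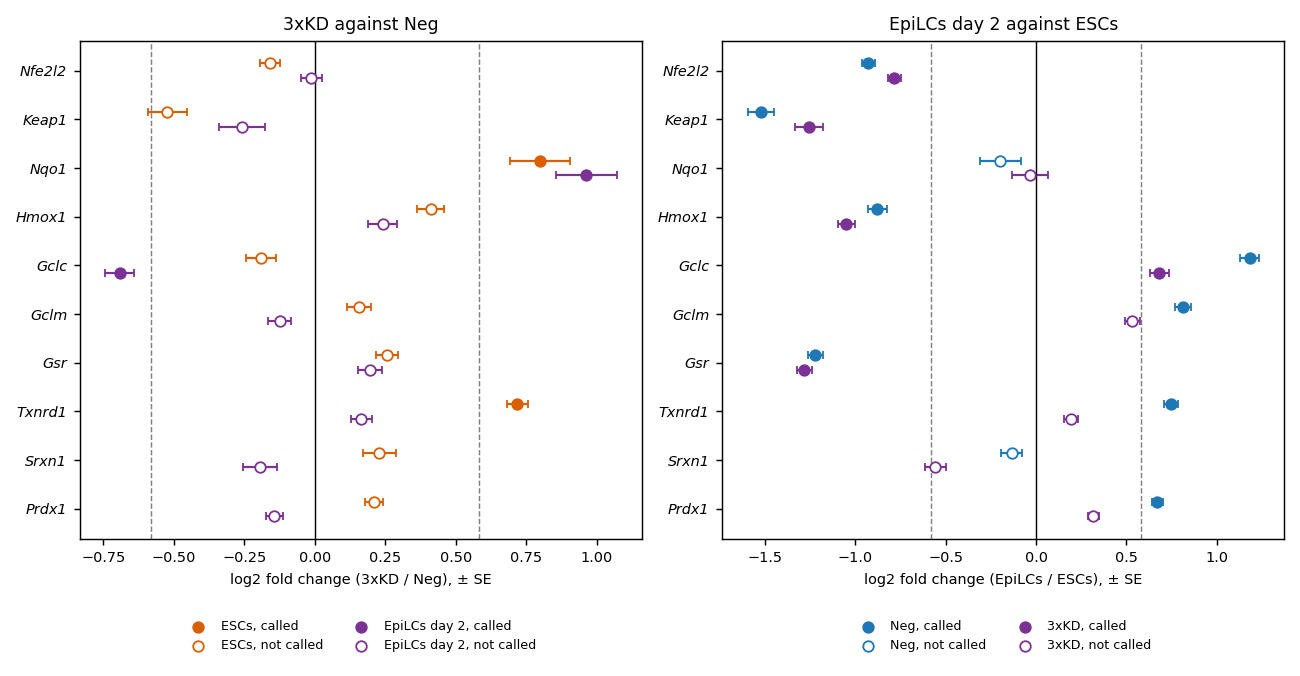
Log2 fold changes (horizontal axes, ± SE) of the 10 genes, on the left for 3xKD against Neg in ESCs and in EpiLCs, and on the right for EpiLCs against ESCs in Neg and in 3xKD. Filled points were called, open points were not, and dashed lines mark the fold limit of 0.58. The state changes of *Keap1*, *Gsr* and *Nfe2l2* exceeded every 3xKD change of these 3 genes.

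*Nfe2l2* (chr2:75504739-75534985, minus strand) was modestly lower in 3xKD ESCs and did not differ detectably between the lines in EpiLCs. Its libraries gave 187, 185 and 172 CPM in Neg ESCs, 161, 161 and 166 CPM in 3xKD ESCs, 95.8, 94.4 and 95.3 CPM in Neg EpiLCs, and 95.3, 94.9 and 92.8 CPM in 3xKD EpiLCs. All ESC libraries exceeded all EpiLC libraries, but the share of all tested genes that separate the states is not given here. Only in EpiLCs did the lines overlap. The log2 fold change for 3xKD was -0.16 (SE 0.035, edgeR adjusted p = 0.0016) in ESCs and -0.01 (SE 0.037, edgeR adjusted p = 0.83) in EpiLCs. The latter value was 0.046 with scaling by library size alone and 0.019 with no count filter. From ESCs to EpiLCs, *Nfe2l2* fell by 0.93 (SE 0.036) on the log2 scale in Neg and by 0.78 (SE 0.036) in 3xKD. At least 95.1% of its TPM on average in every group came from 1 transcript of 2475 bases.

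*Keap1* (chr9:21141026-21150679, minus strand) encodes the cysteine-rich sensor that holds NRF2 for degradation. It was expressed at 42.5, 47.3 and 46.8 CPM in Neg ESCs and at 32.4, 33.1 and 29.7 CPM in 3xKD ESCs, with every 3xKD library below every Neg library. In EpiLCs it was at 15.5, 16 and 16.1 CPM in Neg and 14.6, 13.2 and 11.9 CPM in 3xKD. These groups did not overlap either, as for 47.2% of all tested genes, a share that includes genes with a mean below 1 CPM. *Keap1* fell by 0.52 (SE 0.069, edgeR adjusted p = 9.9e-06) on the log2 scale in 3xKD ESCs, short of the fold limit. In EpiLCs the log2 fold change was -0.26 (SE 0.080, edgeR adjusted p = 0.017), which missed the limit, and it was 0.38 (adjusted p = 0.23) when offsets for average transcript length were used. Of the 10 genes, *Keap1* had the deepest fall between states, by 1.52 (SE 0.073) in Neg and by 1.26 (SE 0.076) in 3xKD, except that *Gsr* fell by 1.28 in 3xKD. Both regulators were therefore lower in EpiLCs in either line, and the 3xKD effect on them did not differ detectably between states (differences of 0.15, SE 0.051, adjusted p = 0.066, for *Nfe2l2* and 0.27, SE 0.11, adjusted p = 0.11, for *Keap1*).

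*Nqo1* (chr8:108113835-108129934, minus strand) encodes the NAD(P)H quinone reductase that is widely used as a readout of NRF2 activity. On the TPM scale it was the lowest of the 10 genes in ESCs, although per kb of the longest transcript *Keap1* was lower in 3xKD ESCs (8.78 against 10.5 CPM per kb). *Nqo1* rose in 3xKD in both states. Neg ESC libraries gave 8.42, 9.98 and 9.59 CPM, and 3xKD ESC libraries gave 16.5, 15.7 and 16.7 CPM. In EpiLCs the values were 7.21, 9.13 and 8.22 CPM in Neg and 14.1, 15.9 and 17.9 CPM in 3xKD. The lowest 3xKD library therefore lay above the highest Neg library in either state. The change was 1.74-fold in ESCs (log2 0.80, SE 0.11, edgeR adjusted p = 1.1e-05) and 1.95-fold in EpiLCs (log2 0.96, SE 0.11, edgeR adjusted p = 1.6e-06), and these effects did not differ detectably (difference 0.16, SE 0.15, edgeR adjusted p = 0.56). Between states *Nqo1* overlapped in both lines, with log2 fold changes of -0.20 (SE 0.11, edgeR adjusted p = 0.18) in Neg and -0.03 (SE 0.10, edgeR adjusted p = 0.84) in 3xKD. All reads of the gene were assigned to 1 transcript of 1553 bases, so its values do not depend on how reads were divided among transcripts.

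*Hmox1* (chr8:75820241-75827217, plus strand) encodes heme oxygenase 1, the inducible enzyme that opens the heme ring and releases iron. It was at 87.2, 96.5 and 84.9 CPM in Neg ESCs and 117, 122 and 118 CPM in 3xKD ESCs, and at 46.3, 48.8 and 51.1 CPM in Neg EpiLCs and 56.2, 58.1 and 58.3 CPM in 3xKD EpiLCs. The lines did not overlap in either state. The ESC libraries of both lines exceeded all EpiLC libraries, which is given without the share of all tested genes. *Hmox1* rose by 0.41 (SE 0.048, edgeR adjusted p = 2.6e-06) on the log2 scale in 3xKD ESCs and by 0.24 (SE 0.051, edgeR adjusted p = 0.0012) in 3xKD EpiLCs, both under the fold limit. The difference between these effects was -0.17 (SE 0.070, edgeR adjusted p = 0.12). From ESCs to EpiLCs it fell by 0.88 (SE 0.051) in Neg and by 1.05 (SE 0.049) in 3xKD, opposite in sign to its change with 3xKD.

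The subunits of glutamate-cysteine ligase, which carries out the rate-limiting step of glutathione synthesis, were both higher in EpiLCs, and the catalytic subunit was lower in the 3xKD line. *Gclc* (chr9:77661797-77701770, plus strand), the catalytic subunit, was at 56.1, 58.5 and 58.3 CPM in Neg ESCs and 48.0, 48.8 and 54.8 CPM in 3xKD ESCs. In EpiLCs it stood at 135, 126 and 132 CPM in Neg and 84.1, 82.0 and 76.7 CPM in 3xKD. The 3xKD EpiLC libraries thus lay between the ESC libraries and the Neg EpiLC libraries, with no overlap. *Gclc* fell in 3xKD by 0.19 (SE 0.054, edgeR adjusted p = 0.0082) on the log2 scale in ESCs and by 0.69 (SE 0.050, edgeR adjusted p = 1.1e-08) in EpiLCs, to 0.619 of the Neg level. The effect was stronger in EpiLCs by -0.50 (SE 0.073, edgeR adjusted p = 1.3e-04), although with transcript-length offsets this difference was -0.41 and no longer passed (adjusted p = 0.24). Between states *Gclc* rose by 1.18 (SE 0.051) in Neg and by 0.68 (SE 0.052) in 3xKD.

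*Gclm* (chr3:122039126-122065061, plus strand), the modifier subunit, was at 52.5, 57.2 and 52.0 CPM in Neg ESCs and 58.9, 60.1 and 61.1 CPM in 3xKD ESCs. In Neg EpiLCs it was at 95.9, 92.9 and 95.1 CPM and in 3xKD EpiLCs at 87.9, 84.6 and 87.9 CPM. The lines did not overlap in either state, but their order turned, with 3xKD higher in ESCs and lower in EpiLCs. *Gclm* rose by 0.16 (SE 0.043, edgeR adjusted p = 0.0076) in 3xKD ESCs, and in EpiLCs the log2 fold change was -0.12 (SE 0.041, edgeR adjusted p = 0.023). The difference of -0.28 (SE 0.059, edgeR adjusted p = 0.0032) was the weakest of the 5 that passed. It missed the limit with library size alone (-0.21, adjusted p = 0.038) or transcript-length offsets (-0.43, adjusted p = 0.011), and when replicate 3 of Neg ESCs, replicate 3 of 3xKD ESCs or replicate 2 of 3xKD EpiLCs was left out (-0.25 to -0.27). *Gclm* shares 492 exon bases with *Gm6061*, annotated on the same strand, so its counts are uncertain to that extent.

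*Gsr* (chr8:34142551-34188192, plus strand) encodes glutathione reductase, which uses NADPH to regenerate reduced glutathione. Its levels were 99.98, 108 and 105 CPM in Neg ESCs, 129, 122 and 123 CPM in 3xKD ESCs, 43.1, 45.6 and 45.3 CPM in Neg EpiLCs, and 50.2, 51.8 and 51.5 CPM in 3xKD EpiLCs. Every 3xKD library exceeded every Neg library of the same state. Every ESC library also exceeded every EpiLC library, with no share of all tested genes given for such separation. *Gsr* rose in 3xKD by 0.26 (SE 0.039, edgeR adjusted p = 5.3e-05) in ESCs and by 0.20 (SE 0.043, edgeR adjusted p = 0.0016) in EpiLCs on the log2 scale, with no detectable difference between the effects (-0.06, SE 0.059, adjusted p = 0.58). From ESCs to EpiLCs it fell by 1.22 (SE 0.042) in Neg and by 1.28 (SE 0.041) in 3xKD. The enzyme of glutathione recycling and the subunits of glutathione synthesis thus moved in opposite directions between states in both lines. *Gsr* shares 144 exon bases with *Gm24727*, annotated on the same strand, so its counts are uncertain to that extent.

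*Txnrd1* (chr10:82669785-82733546, plus strand) encodes cytosolic thioredoxin reductase, a selenoprotein that passes electrons from NADPH to thioredoxin. Neg ESC libraries gave 219, 243 and 226 CPM, 3xKD ESC libraries 375, 380 and 379 CPM, Neg EpiLC libraries 384, 384 and 388 CPM, and 3xKD EpiLC libraries 426, 448 and 421 CPM. Neg ESCs stood apart from the other groups, and the highest 3xKD ESC library lay just under the lowest Neg EpiLC library. *Txnrd1* rose 1.65-fold in 3xKD ESCs (log2 0.72, SE 0.038, edgeR adjusted p = 2.8e-10) and by 0.17 (SE 0.037, edgeR adjusted p = 0.0019) on the log2 scale in 3xKD EpiLCs. The difference between these effects was -0.55 (SE 0.053, edgeR adjusted p = 2.0e-06). Between states it rose by 0.75 (SE 0.038) in Neg and by 0.19 (SE 0.037) in 3xKD.

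*Prdx1* (chr4:116532123-116558398, plus strand), which encodes an abundant peroxiredoxin that thioredoxin keeps reduced, was at 473, 487 and 479 CPM in Neg ESCs and 557, 544 and 565 CPM in 3xKD ESCs. In EpiLCs it was at 784, 760 and 748 CPM in Neg and 690, 709 and 676 CPM in 3xKD. No library of one group lay within another, but between states the share of all tested genes is not given. The 3xKD line was the higher in ESCs and the lower in EpiLCs. *Prdx1* rose by 0.21 (SE 0.032, edgeR adjusted p = 4.2e-05) in 3xKD ESCs and fell by 0.14 (SE 0.032, edgeR adjusted p = 0.0016) in 3xKD EpiLCs on the log2 scale. The effects differed by -0.35 (SE 0.045, edgeR adjusted p = 3.4e-05). From ESCs to EpiLCs *Prdx1* rose by 0.67 (SE 0.032) in Neg and by 0.32 (SE 0.032) in 3xKD.

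*Srxn1* (chr2:151947436-151957687, plus strand) encodes sulfiredoxin, which repairs over-oxidized peroxiredoxins. Its values were 39.6, 41.2 and 39.3 CPM in Neg ESCs and 44.5, 48.0 and 48.2 CPM in 3xKD ESCs. They were 37.0, 37.5 and 34.9 CPM in Neg EpiLCs and 29.1, 33.6 and 32.9 CPM in 3xKD EpiLCs. As for *Prdx1*, the lines did not overlap and their order turned between states. *Srxn1* rose by 0.23 (SE 0.058, edgeR adjusted p = 0.0044) in 3xKD ESCs, while the log2 fold change in EpiLCs was -0.19 (SE 0.060, edgeR adjusted p = 0.016). The difference of -0.42 (SE 0.083, edgeR adjusted p = 0.0019) was -0.51 with transcript-length offsets and no longer passed (adjusted p = 0.038). Between states *Srxn1* fell in 3xKD by 0.56 (SE 0.059, edgeR adjusted p = 6.6e-07), just under the fold limit, whereas in Neg the log2 fold change was -0.14 (SE 0.059, edgeR adjusted p = 0.077).

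**Figure D3:**
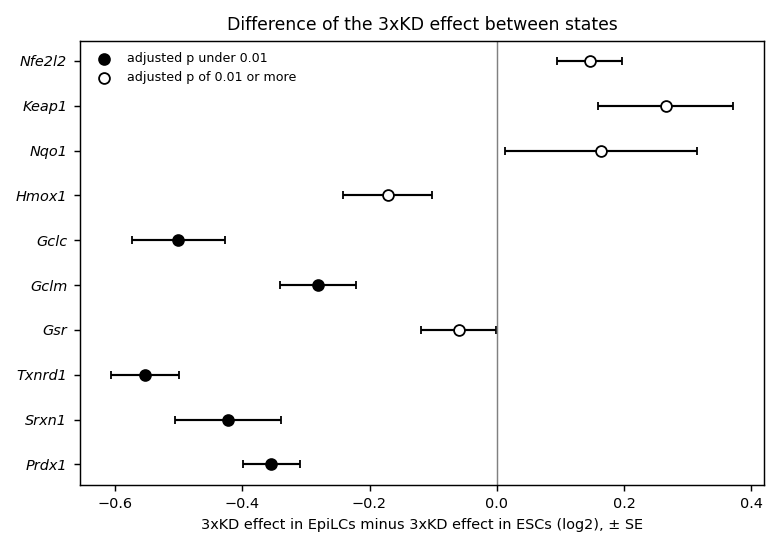
The 3xKD effect in EpiLCs minus the 3xKD effect in ESCs (horizontal axis, log2, ± SE) for the 10 genes. Filled points had an adjusted p under 0.01 from the interaction term of edgeR's quasi-likelihood test. *Gclc*, *Gclm*, *Txnrd1*, *Srxn1* and *Prdx1* lie left of 0, from -0.28 to -0.55, and the other 5 genes lie between -0.17 and 0.27. With transcript-length offsets, which are not shown, only *Txnrd1* and *Prdx1* passed.

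The genes differed widely in abundance per transcript length. On the TPM scale in Neg ESCs, *Prdx1* stood first at 375 ± 75.0 TPM (SD, n = 3), above the next gene in every library. *Gclm* (70.8 ± 12 TPM), *Txnrd1* (51.7 ± 11 TPM), *Nfe2l2* (51.7 ± 10.1 TPM), *Gsr* (44.3 ± 10.7 TPM) and *Hmox1* (43.3 ± 10.7 TPM) followed, and each overlapped its neighbour in this order. After a gap came *Gclc* (15.6 ± 2.93 TPM), *Srxn1* (14.7 ± 2.44 TPM) and *Keap1* (12.9 ± 2.85 TPM), which also overlapped, and *Nqo1* was last at 4.52 ± 1.11 TPM, below *Keap1* in every library. In Neg EpiLCs *Prdx1* (723 ± 45.2 TPM), *Gclm* (158 ± 16.9 TPM), *Txnrd1* (102 ± 7.84 TPM) and *Gclc* (37.6 ± 0.359 TPM) led without overlap. *Nqo1* (4.74 ± 0.862 TPM) and *Keap1* (5.01 ± 1.15 TPM) were last and overlapped. In 3xKD EpiLCs *Nqo1* (8.02 ± 0.194 TPM) exceeded *Keap1* (5.95 ± 2.20 TPM) in every library.

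The second place of *Gclm* rests on short transcripts. In Neg ESCs its transcripts of 292 and 495 bases took 40.4% and 31.6% of its TPM from 3.79% and 16.2% of its reads, and when CPM were divided by the length of the longest transcript instead (5589 bases), *Gclm* ranked 9 of 10. *Keap1* was divided unstably. A transcript of 317 bases held 11.6% of its TPM in Neg ESCs and 40.9% in 3xKD EpiLCs, the latter from a mean of 4 reads per library. The share of its 3151-base transcript ranged from 19.3% to 49.7% of TPM among the Neg ESC libraries alone. A 375-base transcript of *Srxn1* held 34.9% of its TPM in Neg ESCs and 15.1% in Neg EpiLCs, from means of 16.1 and 5.41 reads. A 484-base transcript of *Gclc* held 25% of its TPM in Neg ESCs (15.3% to 42.3% among libraries), from a mean of 21 reads.

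**Figure D4:**
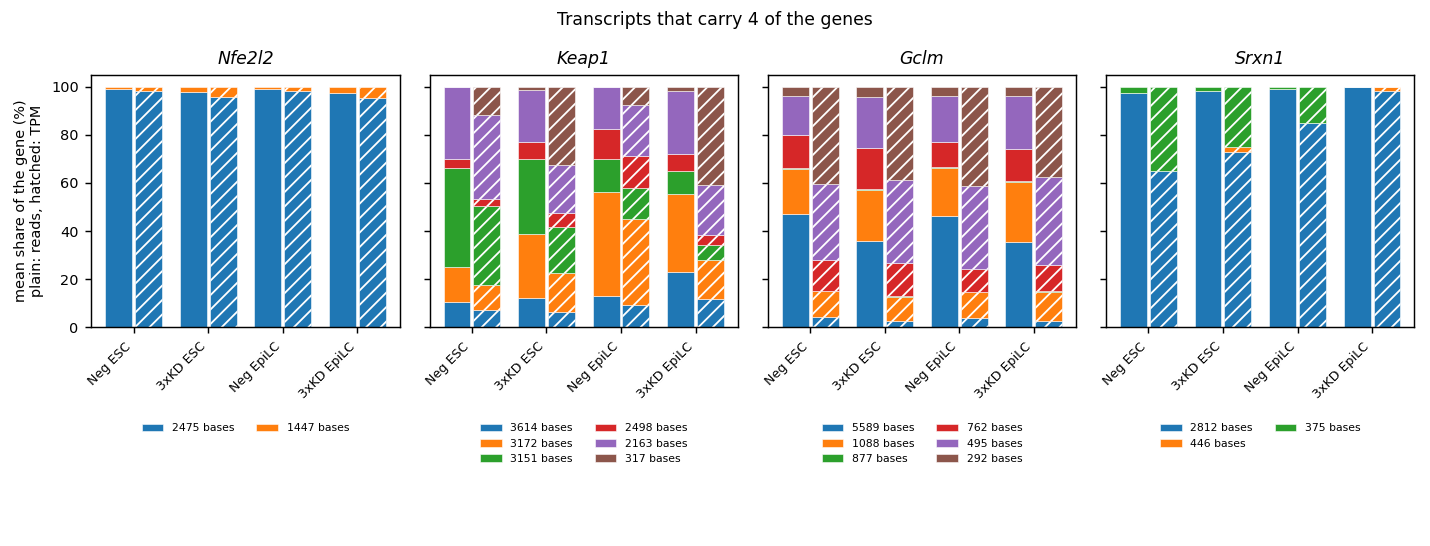
Mean share (vertical axis, percent) of each annotated transcript in the reads (plain bars) and in the TPM (hatched bars) of *Nfe2l2*, *Keap1*, *Gclm* and *Srxn1* in the 4 groups, with colours for transcripts by length. *Nfe2l2* came almost wholly from 1 transcript, while short transcripts of *Keap1*, *Gclm* and *Srxn1* took larger shares of TPM than of reads.

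Exons of *Nfe2l2*, *Srxn1*, *Gclm*, *Prdx1* and *Keap1* overlap those of genes on the opposite strand, by 278 bases with *E030042O20Rik* for *Nfe2l2*, 242 bases with *9230118N01Rik* for *Srxn1*, and 576 bases with *AV051173* for *Prdx1*. *Keap1* overlaps *Gm16754* (620 bases) and *Gm68155* (849 bases), and *Gclm* overlaps *Gm17494* (869 bases) and a gene with no symbol (130 bases). The libraries were directional, but how the counting used strand is not given in the sources used here, so reads of these partners cannot be told apart with certainty. None of the 10 genes lies on chromosome 16, whose 454 genes of mean 1 CPM or more had a median log2 fold change of 0.30 for 3xKD in both states, against 0.01 over all such genes. Medians of the chromosomes that carry the 10 genes lay between -0.05 and 0.05.

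Beyond these 10, a list of 87 further genes of antioxidant defence was counted, of which 86 were tested. The list was chosen with earlier results of these data known, so its counts are a description and no independent test. In 3xKD ESCs 25 of the 86 were called higher and 5 of them lower, against 8.50% and 6.76% of all tested genes, with a median log2 fold change of 0.29 (0.03 over all tested genes). Of the 86, 80 had a mean of at least 1 CPM, but only 15032 of the 25446 tested genes had. These shares therefore do not compare genes of like level. In 3xKD EpiLCs 19 of the 86 were called higher and only *Me1*, a guide target, lower, against 7.88% and 5.35% of all tested genes, with a median of 0.31 (0.03 over all tested genes). In both states 14 were called higher. The share of all tested genes called higher in both was not taken, and the same lines enter both comparisons, so this number cannot be judged. Without the 7 listed genes on chromosome 16 these counts became, of 79 genes, 21 and 5 in ESCs, and 16 and 1 in EpiLCs. Of 12 detoxification enzymes, 6 were called higher and 1 lower in ESCs, and 4 were higher in EpiLCs, and genes of glutathione use had 7 of 21 higher and 1 lower, and 5 higher. Of heme and iron genes, 3 of 8 were called higher in either state, and of glutathione supply 3 of 9 in either state. Among thioredoxin genes the counts were 1 and 2 of 14 called higher, and the share of 7.14% in ESCs was near the 8.50% of all tested genes. Regulators had 2 higher and 1 lower of 12 in ESCs, with 1 higher in EpiLCs (8.33%, near the 7.88% of all tested genes), superoxide and peroxide enzymes 2 higher and 1 lower of 4 tested and 1 higher, and NADPH supply 1 higher and 1 lower of 6 and 1 lower.

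*Txnip*, whose protein binds and inhibits thioredoxin, rose by 1.47 in ESCs (mean 473 to 1307 CPM) and by 1.1 in EpiLCs (973 to 2086 CPM) on the log2 scale. *Bach2*, a repressor related to NRF2 that binds similar elements, fell by 1.88 in ESCs (56.6 to 15.4 CPM), with 10.9 and 11 CPM in Neg and 3xKD EpiLCs. The mitochondrial glutaredoxin *Glrx2* fell by 0.89 in ESCs (32.3 to 17.5 CPM), as did *Me1*, and the aldo-keto reductase *Akr1b8* fell by 0.75 (3.63 to 2.17 CPM). The call of *Akr1b8* was lost with transcript-length offsets, and without replicate 2 or 3 of Neg ESCs or replicate 2 of 3xKD ESCs. The glutathione transferase *Gstm5* rose by 1.45 in ESCs (2.37 to 6.44 CPM), and reads shared with other genes of its family were not examined. *Gstt1* and *Osgin1* were also among the 4 largest increases in ESCs, from 10 to 40 and from 56 to 158 counts over the 3 libraries, and lost their calls under several alternatives. In EpiLCs the largest increases beside *Txnip* were those of the carbonyl reductase *Cbr3* (1.45, 4.63 to 12.6 CPM), the iron exporter *Slc40a1* (1.29, 1.40 to 3.43 CPM) and the efflux transporter *Abcc1* (1.13, 37.6 to 82.2 CPM), of which *Cbr3* and *Abcc1* lie on chromosome 16.

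**Figure D5:**
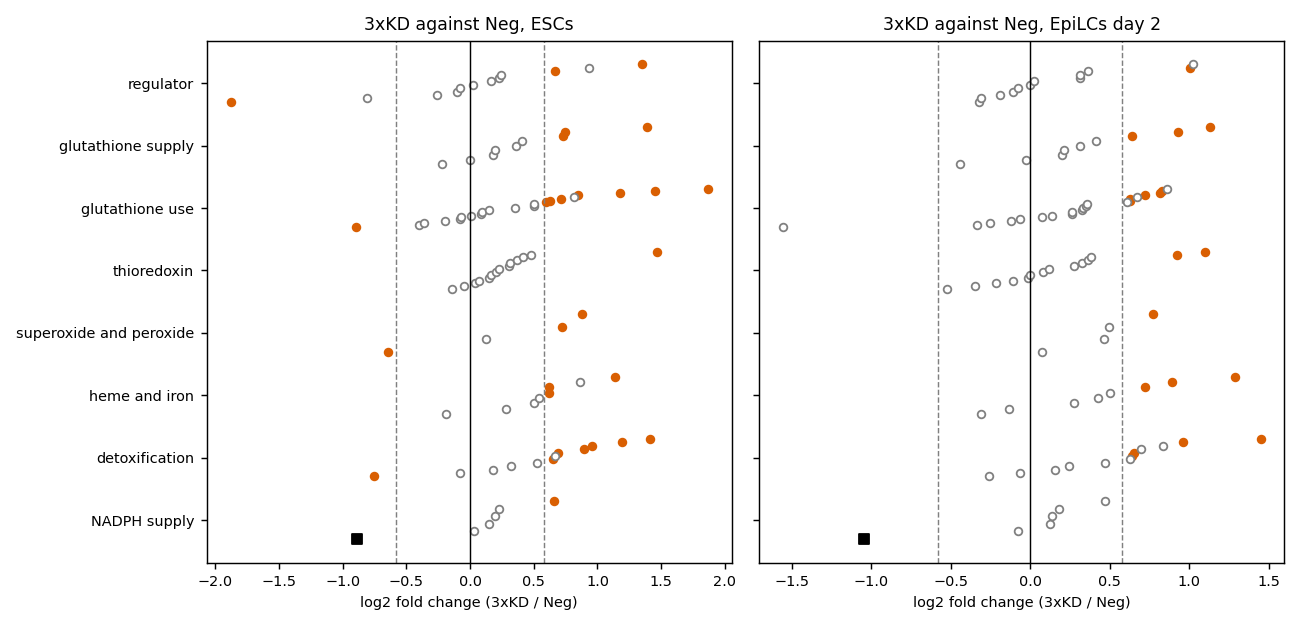
Log2 fold changes for 3xKD against Neg (horizontal axes) of the 86 tested further antioxidant genes, in 8 lists (vertical axis), in ESCs on the left and EpiLCs on the right, with points spread vertically for display. Filled points were called, open points were not, the black square is the guide target *Me1* and dashed lines mark the fold limit of 0.58. Called points lie mostly to the right in both panels.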

How the data were processed

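Per the submitters' processing notes and the methods, the authors used Trim Galore 0.6.7 on the single-end reads, aligned to GRCm39 with STAR 2.7.9a and quantified transcripts with Salmon 1.10.1. The deposited tables give estimated counts per transcript without normalization, and TPM as the authors' software computed it from transcript length and library total. Here the estimated counts of a gene's transcripts were added and rounded, so no transcript-length offsets entered (they are an alternative). The 12 libraries were grouped by sample titles, since in the labels the field for cell type holds 1 state per line. The labels name polyadenylated RNA and the methods ribosomal RNA depletion. The methods state biological triplicates and the labels name no cultures, so p-values measure the spread between these samples. Chi-square per degree of freedom between replicates was 2.84 to 16.4, above the counting error of 1 library sequenced again. Whether libraries were made from the same culture or RNA cannot be told from it.

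Genes reaching 10 counts over all libraries were fitted in 1 model of 4 groups (edgeR 4.0.16 in R 4.3.3, TMM factors, quasi-likelihood test, Benjamini-Hochberg adjustment over all 25446 genes), which was tested on simulated data. For the difference between states, 67% of simulated log2 changes of 1 and 83% of those of 1.5 were recovered. Smaller changes were not simulated, so a difference that was not detected may still be present. Calls needed an adjusted p under 0.01 together with a log2 fold change beyond 0.58 in either direction, or the adjusted p alone for the difference between states. The members and lists were chosen with earlier results of these data known. Beside the 10 genes, the text names the guide targets and, for every comparison, the 4 called genes of largest change in either direction among 87 further genes. Alternatives were DESeq2 1.42.0, RLE factors, plain library size, filterByExpr or no filter, transcript-length offsets, a replicate block, only the 2 groups compared, an adjusted p under 0.05 without fold limit, and leaving out each library. Coordinates are from GENCODE vM39 (GRCm39), which matched 99.0% of the genes by ID. RefSeq promoter windows come from a GRCm38.p6 table and were placed on GRCm39 by exact match.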

Additional observations from a re-analysis of the deposited data

Results flagged for a closer look

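The effect of 3xKD differed between EpiLCs and ESCs for 5 of the 10 genes, by the interaction term of edgeR's quasi-likelihood test at an adjusted p under 0.01. The differences (EpiLC effect minus ESC effect, log2) were -0.50 for *Gclc*, -0.28 for *Gclm*, -0.55 for *Txnrd1*, -0.42 for *Srxn1* and -0.35 for *Prdx1*. For *Prdx1* the effect passed the test in both states with opposite signs, and for *Txnrd1* it was positive in both. With transcript-length offsets the differences of *Gclc*, *Gclm* and *Srxn1* no longer passed.

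Of the other antioxidant genes, 5 of 86 had a positive and 14 a negative difference at the same limit (of all 25446 tested genes 1211 and 1342), and with transcript-length offsets the numbers were 1 and 3. The 4 largest in each direction are given, of which *Bach2*, *Glrx2*, *Sesn1*, *Pir*, *Gstm5* and *Fth1* no longer passed with transcript-length offsets (edgeR adjusted p of 0.050, 0.065, 0.027, 0.053, 0.041 and 0.13). *Bach2* differed by 1.90, *Glrx2* by 0.97, the mitochondrial superoxide dismutase *Sod2* by 0.72 and the sestrin *Sesn1* by 0.70. *Pir* differed by -0.76, *Gstm5* by -0.73, the ferritin heavy chain *Fth1* by -0.59 and the peroxiredoxin *Prdx6* by -0.43. *Bach2* and *Sod2* were the genes among these 8 whose level in Neg ESCs (56.6 and 166 CPM) was far above that in the EpiLC groups (10.9 and 11 CPM, 45.6 and 47.9 CPM). *Gstm5* kept its side of the limit in none of the fits with DESeq2, library size alone, no filter, transcript-length offsets or the replicate block.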

How the results depend on the processing

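Of the counts of called genes, none moved by over 1.5 times with DESeq2, RLE factors, library size alone, filterByExpr, no filter, the replicate block or only the 2 groups compared. With transcript-length offsets, other antioxidant genes called lower in 3xKD ESCs numbered 3 in place of 5, and those called higher between states in 3xKD 4 in place of 10. For the difference between states, offsets left 2 of the 10 genes (*Txnrd1* and *Prdx1*) in place of 5, and 1 higher and 3 lower of the other genes in place of 5 and 14. With an adjusted p under 0.05 and no fold limit, 7 of the 10 genes were higher and 3 lower in 3xKD ESCs (other genes 49 and 9), and 4 were higher and 5 lower in 3xKD EpiLCs (other genes 44 and 9). Between states this limit gave 26 higher and 37 lower of the other genes in Neg, and in 3xKD 4 of the 10 genes higher and 19 higher and 43 lower of the others. The share of all tested genes was not taken at this limit. At an adjusted p under 0.01 without fold limit it was already 31.6% in 3xKD ESCs and 29.9% in 3xKD EpiLCs. Between states, 9081 of all 25446 tested genes passed at 0.01 in Neg and 8602 in 3xKD. Why the counts moved was not tested.

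Some signs turned, that of *Keap1* for a value over 3 SE from 0 (-0.26, SE 0.080) and the others for values near 0. The 3xKD effect on *Nfe2l2* in EpiLCs was 0.046 with library size alone and 0.019 with no filter, and that on *Keap1* 0.38 with offsets. The state change of *Nqo1* in 3xKD was 0.0025 with library size alone, and it ranged from -0.11 to 0.049 with 1 library left out, above 0 without replicate 1 of 3xKD EpiLCs. The difference between states was 0.013 for *Gsr* and 0.048 for *Me2* with library size alone and -0.10 for *Pcx* with offsets. For *Me2* it ranged from -0.061 to 0.010 with 1 library left out, above 0 without replicate 3 of Neg ESCs or replicate 2 of 3xKD ESCs. *Srxn1* between states in 3xKD was called with offsets (-0.95) and without replicate 1 of 3xKD ESCs (-0.58) or replicate 2 of 3xKD EpiLCs (-0.60).

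Leaving out any 1 library, the counts for the 10 genes stayed as reported, except 4 to 5 called lower between states in 3xKD and 4 to 5 in the difference between states. Correlations of deviations were -0.13 to 0.10 in 18 same-number pairs and -0.15 to 0.18 in 36 other-number pairs, so no pairing by replicate number was seen. Whether samples of 1 number shared a culture or a day cannot be told from these values. With the replicate number as a block, 2 of the 10 genes were called in 3xKD ESCs and 5 in the difference between states, as without it. Counts limited *Osgin1*, *Nfe2*, *Mgst1* and *Gstt1*, with 10 or fewer counts over 3 libraries in at least 1 group.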

Other observations

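Between states, the 86 tested other antioxidant genes gave 12 called higher and 20 called lower in EpiLCs in Neg (median log2 fold change -0.10) and 10 higher and 21 lower in 3xKD (median -0.21). Of all tested genes 20.8% and 18.7% were called in either direction, with medians of 0.01 in both lines. Superoxide and peroxide enzymes had 2 and 3 of 4 called lower and none higher, with log2 fold changes below 0 for all 4 in both lines. Genes of glutathione supply had 4 higher and 2 lower of 9 in Neg and 3 higher and 2 lower in 3xKD. Among the lower ones in 3xKD was *Gss*, glutathione synthetase, which fell by 2.18 on the log2 scale (mean 84.2 to 18.6 CPM), while *Gclc* and *Gclm* of the same route were higher in EpiLCs. Its level in Neg was 65.5 CPM in ESCs and 11.9 CPM in EpiLCs.

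The glutaredoxin *Glrx* fell by 2.47 in Neg (26.6 to 4.79 CPM) and by 2.01 in 3xKD (23.2 to 5.76 CPM). The efflux transporter *Abcc4* rose by 1.21 in Neg (50.9 to 117 CPM) and by 1.42 in 3xKD (50.8 to 136 CPM), and *Akr1b8* rose by 1.59 in 3xKD (2.17 to 6.56 CPM). *Slc40a1* rose by 1.31 in 3xKD (1.38 to 3.43 CPM), a call lost with transcript-length offsets, and *Gstm5* rose by 1.27 in Neg (2.37 to 5.65 CPM). The others named by size were near the floor of detection. Summed over the 3 libraries of a group, *Osgin1* went from 56 to 7 counts in Neg and from 158 to 10 in 3xKD, *Aldh3a1* from 132 to 18 in Neg, *Nfe2* from 57 to 9 in Neg and from 35 to 8 in 3xKD, *Gstt1* from 10 to 56 and the cystine transporter *Slc7a11* from 20 to 62 in Neg, and *Mgst1* from 13 to 52 in 3xKD. With transcript-length offsets the calls of *Slc7a11* and *Nfe2* in Neg and of *Nfe2* and *Mgst1* in 3xKD were lost. Those of *Nfe2* and *Mgst1* in 3xKD were also lost with DESeq2, with only the groups compared, and without any 1 of replicates 2 and 3 of 3xKD ESCs and replicates 2 and 3 of 3xKD EpiLCs, and that of *Mgst1* without replicate 1 of 3xKD EpiLCs.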
